A study of Mus musculus with 10 samples.

Results

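The genes described here are 9 components of the cyclic AMP (cAMP) pathway in CD4+ splenocytes: the prostaglandin E2 receptor Ptger4, the adenylyl cyclase Adcy7, the phosphodiesterases Pde4b, Pde4d and Pde3b, the cAMP effectors Prkaca and Rapgef3, and the transcription factors Creb1 and Crem. They were chosen by gene symbol, with earlier results of the same arrays known, and every probe set that the platform annotation assigns to exactly 1 of these symbols is included, which gives 31 probe sets. The 9 genes are among 18193 genes named in this way on the array. Each of 10 Affymetrix arrays holds the RNA of CD4+ spleen cells from 1 C57Bl/6 mouse, 8 to 12 weeks old. CLP, for cecal ligation and puncture, tied off and pierced the cecum of 5 mice, a model of abdominal sepsis with gut bacteria, and the 5 sham mice had theirs brought out and handled only. All 10 mice had halothane anaesthesia and a laparotomy, and spleens were taken 6 h later. Immunomagnetic negative selection left about 91% CD4+ cells per the series' design text, so some RNA comes from other cells. A higher or lower signal in such bulk samples cannot tell a change in the number of expressing cells from a change in RNA per cell.

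In T cells cAMP is made by adenylyl cyclases after receptors such as those for prostaglandin E2 and adenosine activate the G protein Gs, and it is broken down by phosphodiesterases. It acts through protein kinase A (PKA), whose best known effect in T cells is to damp signalling from the T cell receptor, and through the Epac proteins, exchange factors that switch on the small GTPase Rap. PKA also phosphorylates CREB, which binds cAMP response elements (CRE) in promoters, while Crem yields both activators and the inducible repressor ICER.

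The promoter sequences below place 3 of these genes beside the CRE core TGACG, which reads CGTCA on the opposite strand. Those of Rapgef3 and Adcy7 are shown because these genes had probe sets that passed the test between CLP and sham. For Rapgef3 all 3 tested probe sets passed, and for Adcy7 1 of 3. That of Pde4b is shown as a gene widely known to be induced by cAMP. Sequences are from RefSeq (GRCm38.p6), written 5′ to 3′ on the gene's strand, with this core in capitals. The first spans 250 bases before to 50 after the start of Rapgef3 (chr15:97767617-97767916, minus strand), and the other 2 are windows of 41 bases around the core of Adcy7 (chr8:88282946-88282986, plus strand) and Pde4b (chr4:102421503-102421543, plus strand).
Rapgef3: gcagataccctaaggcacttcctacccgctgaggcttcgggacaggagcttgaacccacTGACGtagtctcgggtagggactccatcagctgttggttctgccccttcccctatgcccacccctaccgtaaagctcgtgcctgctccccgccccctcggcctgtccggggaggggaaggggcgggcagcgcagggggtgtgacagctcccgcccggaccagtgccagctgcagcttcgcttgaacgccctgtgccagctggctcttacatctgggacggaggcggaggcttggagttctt
Adcy7: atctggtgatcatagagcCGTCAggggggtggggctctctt
Pde4b: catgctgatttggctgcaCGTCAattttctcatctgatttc
The core began 191 bases before the start of Rapgef3, 28 before that of Adcy7 and 34 before that of Pde4b, each time in 1 of the listed promoters of the gene. Of 13 promoters listed for 7 of the 9 genes, 4 held the core on either strand (those of Rapgef3, Adcy7, Pde4b and Prkaca), and none held the full site TGACGTCA. Among 32851 promoters of the same length in the table, 20.8% held the core and 1.79% the full site. A match describes the letters only. Crem and Pde3b had no entry that was used.

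Rapgef3 (Epac1, a cAMP-activated exchange factor for Rap) was 1.65 to 2.12-fold higher in CLP mice at its 3 tested probe sets, and 1 of 3 Adcy7 probe sets was lower. Creb1 was lower on average in CLP mice at its 3 tested probe sets, and Crem was higher at 1418322_at, without passing the test. The phosphodiesterases, Prkaca and Ptger4 did not pass it either. The other tested Crem probe set was bright enough to be tested only through its CLP arrays, so nothing is read from its direction. Values are intensities after scaling each array to a common median of 133.9, set to a floor of 70.36 before log2 was taken. Of the 31 probe sets, 19 were bright enough to be tested, at least 1 for each gene. Groups were compared with limma over all 27022 probe sets that passed the same filter, with Benjamini-Hochberg adjustment and a threshold of 0.05. Among the 19 probe sets 3 were called higher and 1 lower (21.1%), where 0.703% of all tested probe sets were called (0.167% higher and 0.537% lower). Because the genes were picked with this contrast known, these calls and the p-values below are a description, and nothing is read from the excess. The groups did not overlap in 8 of the 19 probe sets, 4 with all CLP arrays above and 4 with all below the sham arrays, where 2.97% of all tested probe sets were separated (0.862% above and 2.11% below). Crem 1449037_at, 1 of the 4 above, passed the filter only through its CLP arrays. With the filter at the 60th percentile 3 lay above, where 1.01% of all tested probe sets did. The median log2 fold change of the 19 was -0.10, and that of all tested probe sets 0.00.

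**Figure D1:**
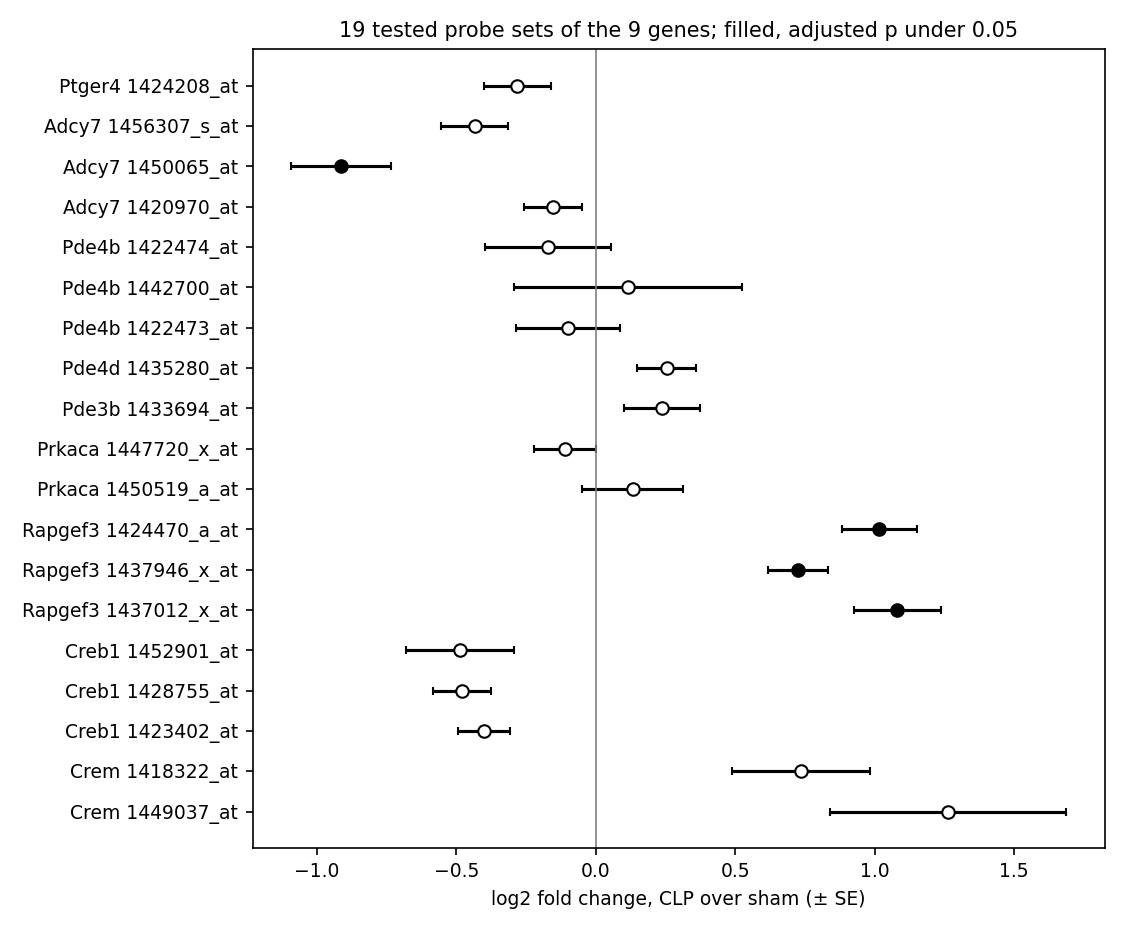
Log2 fold change of CLP over sham with its SE (limma) for the 19 tested probe sets, ordered by role in the pathway. Filled points have an adjusted p under 0.05: the 3 Rapgef3 probe sets lie between 0.72 and 1.08, and 1 Adcy7 probe set lies at -0.91.

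Before the genes are taken in turn, the arrays need a description. Array medians ran from 127.6 to 142.4. The 18S ribosomal RNA control probe sets divided the arrays into 4 with a mean signal between 205 and 304 (CLP replicates 2 and 4, sham replicates 2 and 4) and 6 with a mean between 1411 and 2724, a split already known from earlier results. Since each class held the same number of CLP and sham arrays, entering the class as a block left every fold change as it was and altered only its error. The T cell receptor genes Cd3e and Cd3d and the co-receptor Cd4 were bright in both groups, Cd4 between 1553 and 1876 in CLP arrays and between 1432 and 2400 in sham arrays. None of 43 tested markers of CD4 and other cell types was called, where 0.703% of all tested probe sets were. Nothing about the mix of cells is read from that count. The summed signal of 6 CD4 T cell markers was 11850 to 12736 in CLP and 12614 to 16322 in sham arrays. None of the 6 had a higher mean in CLP arrays (median log2 fold change -0.23), and Cd3g gave -0.49 ± 0.27 (SE). The sum of 5 NK cell markers was 2642 to 2828 in CLP and 3047 to 3588 in sham arrays. For 5 neutrophil markers it was 2084 to 13775 in CLP and 3499 to 10363 in sham arrays, and for 4 erythroid markers 839 to 4051 and 431 to 1690. The median log2 fold change was 0.95 for the erythroid list, whose 3 tested markers all had a higher mean in CLP arrays. It was 0.52 for the neutrophil list (3 of 5 higher) and 0.18 for the platelet list (4 of 4 higher). In the other lists of non-CD4 cells the median lay between -0.08 and 0.13. Hba-a1 of the erythroid list and Ncr1 of the NK list were too dim to test, as were Pecam1, Cdh5, Tek and Pdgfrb of the endothelial and stromal list. The part of these cells in the results below was not tested.

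Ptger4 encodes EP4, the Gs-coupled prostaglandin E2 receptor that raises cAMP in T cells. Its tested probe set (1424208_at) read 2620, 2654, 2680, 3007 and 2184 in CLP arrays 1 to 5, against 2670, 3683, 3159, 3681 and 2831 in sham arrays 1 to 5. The CLP arrays lay towards the low end, but the groups overlapped, since CLP replicate 4 exceeded 2 sham arrays. The log2 fold change was -0.28 ± 0.12 (SE, n = 5 and 5, adjusted p = 0.41 by limma). The other probe set lay below the floor on all 10 arrays.

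Adcy7 encodes adenylyl cyclase 7, an enzyme abundant in blood cells that makes cAMP. Probe set 1450065_at read 727, 438, 530, 379 and 443 in CLP arrays, against 970, 814, 1188, 745 and 955 in sham arrays. Every CLP array lay below every sham array, with CLP replicate 1 close under sham replicate 4. Its log2 signal averaged 8.94 ± 0.36 in CLP and 9.85 ± 0.26 in sham arrays (SD, n = 5 each), and the fitted difference was -0.91 ± 0.18 on the log2 scale (SE, limma adjusted p = 0.0469), 1.88-fold lower in CLP. The call lies close to the threshold: it was lost without any 1 of CLP replicates 2 to 5 or of the 5 sham replicates, while the value kept between -1.05 and -0.82 over 23 other settings. The brightest probe set of the gene, 1456307_s_at, read 5211, 3399, 4497, 5334 and 4132 in CLP arrays, against 6017, 5833, 5853, 6023 and 6393 in sham arrays. Again no CLP array reached the sham arrays, which lay close together (SD of log2 0.05, against 0.27 in CLP), and the log2 fold change of -0.43 ± 0.12 did not pass (adjusted p = 0.139 by limma). The third, 1420970_at, ran from 158 to 194 in CLP and from 159 to 223 in sham arrays, with a log2 fold change of -0.15 ± 0.10 that did not pass.

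Phosphodiesterases of the PDE4 family and Pde3b degrade cAMP, and PDE4 enzymes are the main ones in T cells. Pde4d (1435280_at) read 896, 1223, 1114, 1214 and 1247 in CLP arrays, against 875, 892, 999, 943 and 1042 in sham arrays. In 4 CLP arrays it exceeded every sham array, and CLP replicate 1 lay among them. Its log2 fold change of 0.25 ± 0.11 did not pass (adjusted p = 0.393 by limma). Pde3b (1433694_at) read 4029, 4980, 5070, 6700 and 5214 in CLP arrays, against 3975, 4692, 3881, 5207 and 4145 in sham arrays. The groups overlapped, and the log2 fold change of 0.24 ± 0.14 did not pass (adjusted p = 0.618).

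Pde4b had 6 probe sets, of which 3 were tested, and 2 of these differed by the 18S class of the arrays, in opposite directions. Probe set 1422474_at read 1707, 3280, 1943, 2552 and 2004 in CLP arrays, against 1894, 3302, 2422, 3559 and 1863 in sham arrays. The 4 arrays with low 18S signal were the highest 4 of the 10, in both groups. Low against high 18S arrays gave a log2 difference of 0.68 ± 0.11 (SE, adjusted p = 0.00223 by limma, with surgery in the model). CLP against sham gave -0.17 ± 0.22 without the class in the model (adjusted p = 0.911) and -0.17 ± 0.11 with it (adjusted p = 0.526 by limma). Probe set 1442700_at went the other way. It read 1728, 635, 1536, 1107 and 1894 in CLP arrays, against 2125, 628, 1962, 627 and 1444 in sham arrays. Here the 4 low 18S arrays were the lowest 4, CLP replicate 4 being nearest to the rest, with a log2 difference of -1.28 ± 0.17 by class (adjusted p = 0.000908). By surgery it was 0.12 ± 0.41 without the class in the model (adjusted p = 0.973) and 0.12 ± 0.17 with it (adjusted p = 0.839 by limma). The third, 1422473_at, overlapped between both the classes and the groups, with a log2 fold change of -0.10 ± 0.19 for CLP over sham. The other 3 probe sets were too dim to test.

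**Figure D2:**
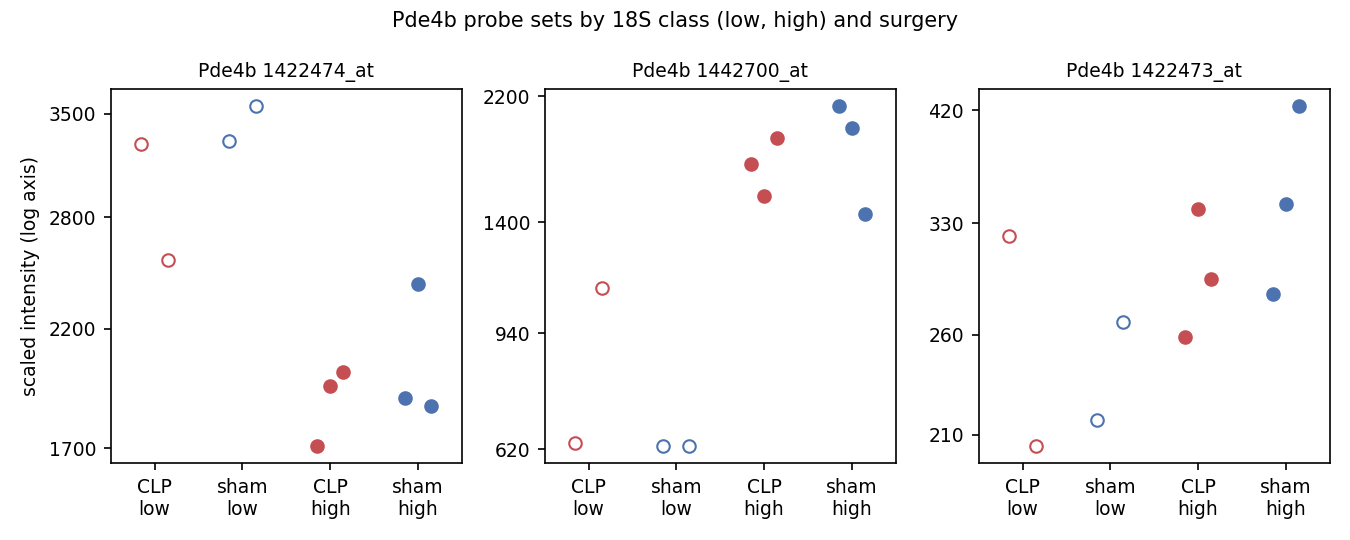
Scaled intensity (log axis) of the 3 tested Pde4b probe sets on each array, by 18S class and surgery, with open points for low and filled points for high 18S signal. The low 18S arrays lie above all high ones for 1422474_at (2552 to 3559 against 1707 to 2422) and below them all for 1442700_at (627 to 1107 against 1444 to 2125).

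These 2 Pde4b probe sets were the only ones of the 19 called by 18S class, which is 10.5%, where 15.1% of all tested probe sets were called (4.99% higher and 10.1% lower in the low class). Adcy7 1450065_at gave -0.43 ± 0.13 for low against high (adjusted p = 0.053) and Ptger4 1424208_at gave 0.27 ± 0.09 (adjusted p = 0.0751), neither of which passed.

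Prkaca encodes the main catalytic subunit of PKA. Probe set 1447720_x_at read 1677, 1219, 1586, 1565 and 1792 in CLP arrays, against 1503, 1599, 1821, 1745 and 1742 in sham arrays. Probe set 1450519_a_at read 511, 724, 512, 683 and 803 in CLP arrays, against 654, 652, 502, 737 and 415 in sham arrays. Both overlapped widely between the groups and their log2 fold changes had opposite signs, -0.11 ± 0.11 and 0.13 ± 0.18, with adjusted p = 0.859 and 0.915 by limma.

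Rapgef3 encodes Epac1, which couples cAMP to Rap without PKA and is known for its part in integrin-mediated adhesion. Its brightest probe set, 1424470_a_at, read 291, 358, 415, 312 and 479 in CLP arrays, against 169, 174, 180, 204 and 177 in sham arrays. Every CLP array exceeded every sham array, by a clear gap between 204 and 291, and the CLP arrays were the more spread. The log2 signal averaged 8.51 ± 0.29 in CLP and 7.49 ± 0.11 in sham arrays (SD, n = 5 each), and the log2 fold change was 1.02 ± 0.13 (SE, adjusted p = 0.0163 by limma), or 2.02-fold.

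The other 2 tested Rapgef3 probe sets showed the same separation. Probe set 1437946_x_at read 226, 308, 281, 263 and 299 in CLP arrays, against 148, 185, 157, 183 and 159 in sham arrays (log2 fold change 0.72 ± 0.11, adjusted p = 0.0225). Probe set 1437012_x_at read 204, 252, 301, 208 and 357 in CLP arrays, against 106, 121, 129, 142 and 115 in sham arrays (log2 fold change 1.08 ± 0.16, adjusted p = 0.0225). CLP replicate 1 was the lowest CLP array in all 3. Probe sets of 1 gene share their RNA and are no replicates of the effect, and names ending in _x_at mark sets with probes that may bind other transcripts. Of the others, 1424471_at was too dim to test and ran from 97.7 to 124 in CLP and from 81.3 to 121 in sham arrays, and 1438590_at lay below the floor on all arrays. Within the low 18S class the brightest probe set differed by 0.83 and within the high class by 1.14 on the log2 scale. Leaving out sham replicate 3, dropping the filter on dim probe sets or taking either 18S class alone ended all 3 calls. In each of these settings no probe set of the whole array was called higher. Both _x_at sets also lost their calls without CLP replicate 2, 3 or 5 or sham replicate 1 or 4, and 1437012_x_at without sham replicate 2. The log2 fold change of the brightest set lay between 0.83 and 1.14 over the 23 other settings.

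**Figure D3:**
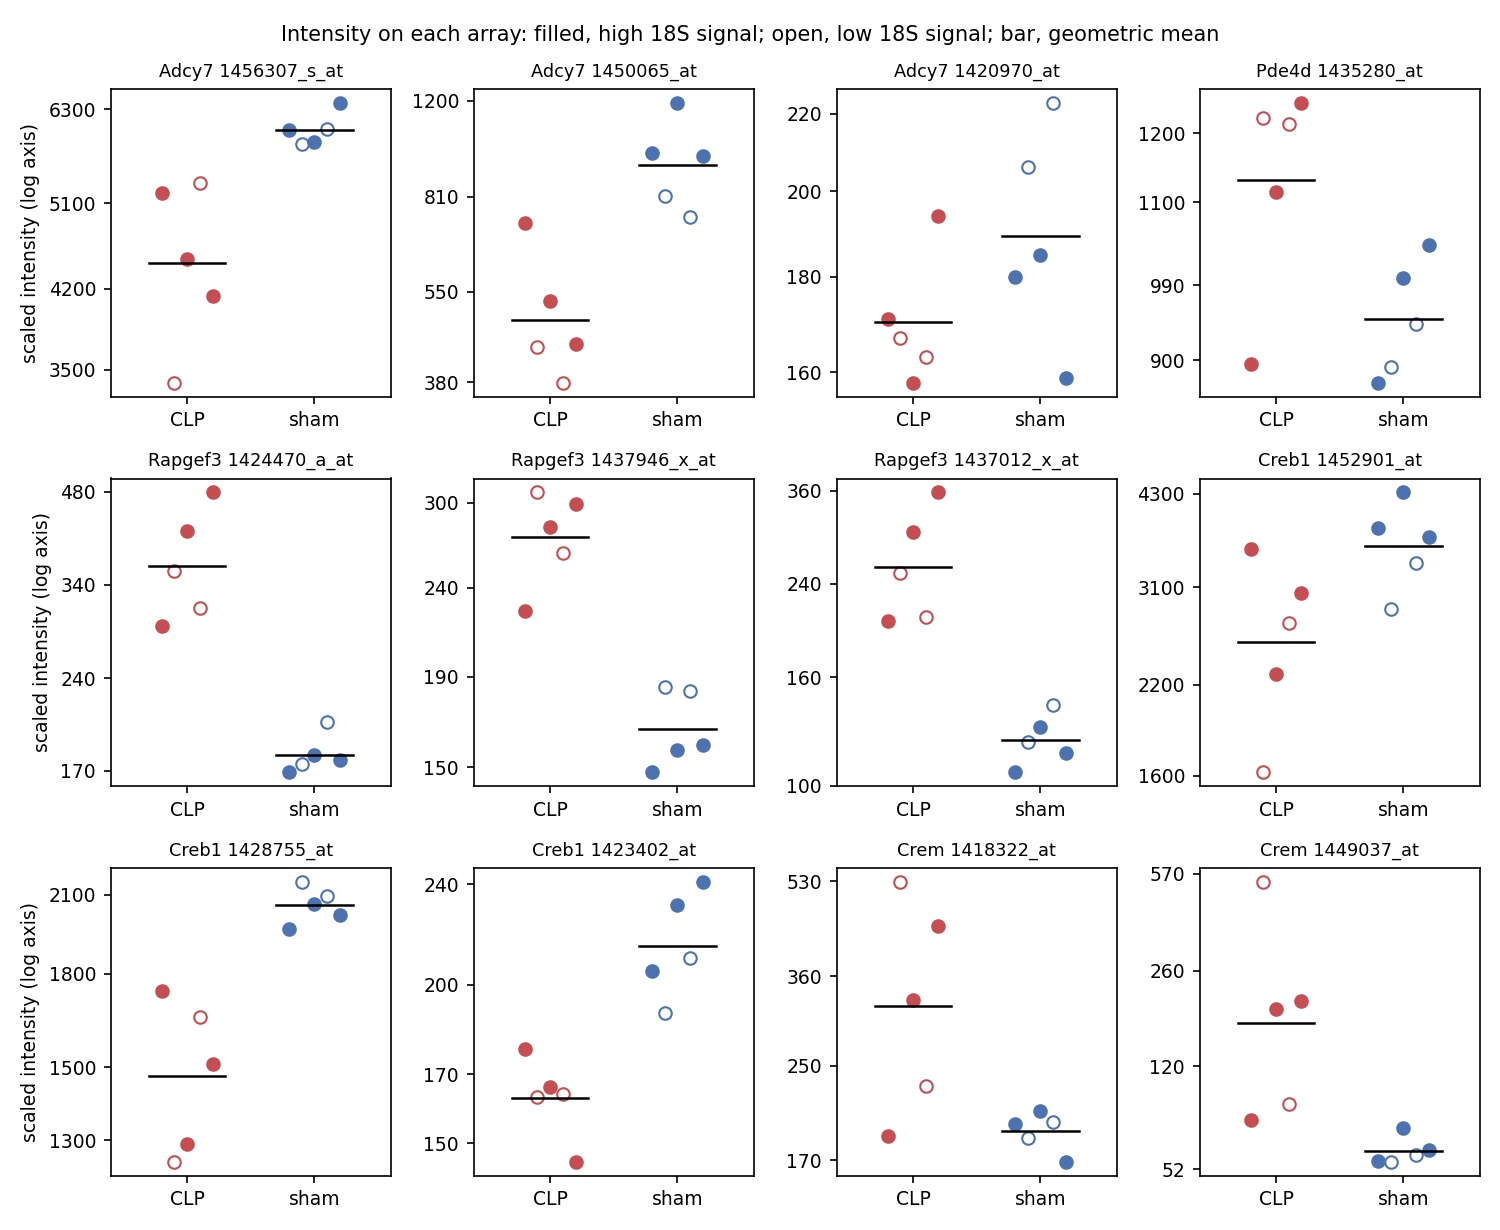
Scaled intensity (log axis) on each array for the 12 tested probe sets of Adcy7, Pde4d, Rapgef3, Creb1 and Crem, with CLP left of sham, filled points for arrays of high and open points for arrays of low 18S signal, and bars at the geometric mean. The CLP arrays of Rapgef3 1424470_a_at lie at 291 to 479 against 169 to 204 in sham arrays, and those of Crem 1449037_at spread from 77.3 to 534.

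Creb1 encodes CREB, the transcription factor that PKA activates. Probe set 1428755_at read 1740, 1247, 1290, 1655 and 1509 in CLP arrays, against 1965, 2153, 2064, 2094 and 2018 in sham arrays. All CLP arrays lay below the sham arrays, which varied little (SD of log2 0.05, against 0.21 in CLP), and the log2 fold change was -0.48 ± 0.11 (SE, adjusted p = 0.0676 by limma). Probe set 1423402_at read 178, 163, 166, 164 and 145 in CLP arrays, against 205, 190, 231, 210 and 241 in sham arrays. It was separated too, with a log2 fold change of -0.40 ± 0.09 (adjusted p = 0.082). The brightest, 1452901_at, read 3546, 1619, 2283, 2735 and 3031 in CLP arrays, against 3810, 2872, 4319, 3375 and 3699 in sham arrays. There CLP replicates 1 and 5 overlapped with the sham arrays, and the log2 fold change of -0.49 ± 0.19 had an adjusted p = 0.347. None of the 3 passed. With the 18S class as a block 1428755_at and 1423402_at passed (adjusted p = 0.0391 and 0.0411), and the member probe sets called then numbered 3 higher and 3 lower, 31.6% of the 19, where 2.66% of all tested probe sets were called (0.648% higher and 2.01% lower).

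Crem encodes the cAMP response element modulator, whose repressor form ICER is induced by cAMP itself. Probe set 1449037_at read 77.3, 534, 190, 88.2 and 204 in CLP arrays, against 55.4, 55.3, 72.7, 58.4 and 60.7 in sham arrays. Each CLP array exceeded each sham array, but CLP replicates 1 and 4 did so by little and CLP replicate 2 stood far above the rest. As 4 of the 5 sham arrays lay below the floor, the log2 fold change of 1.26 ± 0.42 depends on it, and it did not pass (adjusted p = 0.234 by limma). It was 0.84 with the floor at the 40th percentile and 0.85 without CLP replicate 2. The probe set passed the filter (mean log2 of 6.71) only through its CLP arrays, with means of 7.41 in CLP and 6.15 in sham arrays. A higher CLP mean was therefore built into its being tested, and nothing is read from its direction. Probe set 1418322_at read 188, 528, 327, 230 and 442 in CLP arrays, against 197, 186, 208, 199 and 169 in sham arrays. The CLP arrays stood in the same order as at the first probe set, with CLP replicate 2 highest and CLP replicate 1 within the range of the sham arrays, and the log2 fold change was 0.74 ± 0.25 (adjusted p = 0.233). The 2 other Crem probe sets were too dim to test.

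The spread among the mice of each group is given as a description. In 12 of the 19 tested probe sets (63.2%) the SD of log2 was larger among CLP than among sham arrays, against 54.8% of all tested probe sets, and within the CLP group it ran from 0.11 to 1.12, the highest being Crem 1449037_at. No test was made of this difference in spread.

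The 5 probe sets of other genes whose signal over the 10 arrays was most like that of Rapgef3 1424470_a_at were those of Gspt1, a translation termination factor, Chmp4b, a membrane-remodelling protein of the ESCRT machinery, Gid8, a ubiquitin ligase subunit, Samhd1, an enzyme that degrades deoxynucleotides, and Usp49, a deubiquitinating enzyme. Likeness was the root mean square distance between log2 profiles set to mean 0 and SD 1, over 10 arrays and 21928 probe sets, and it was 0.20 for Gspt1, 0.22 for Chmp4b, 0.25 for Gid8, 0.29 for Samhd1 and 0.31 for Usp49, where the median was 1.33. The other Rapgef3 probe sets had distances of 0.09 (1437012_x_at) and 0.28 (1437946_x_at). In amplitude the 5 differed from Rapgef3: Gspt1 ran from 670 to 891 in CLP and from 545 to 570 in sham arrays, and the log2 fold changes of the 5 lay between 0.28 and 0.62. These genes were found by searching all profiles, so the distances are a description.

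The rest of the pathway was read through 10 lists of other cAMP genes, by the brightest tested probe set of each gene. Of 112 genes listed, 102 were named on the array and 87 tested, and 1 of these (1.15%) rose and none fell, where 0.75% of all 13073 genes tested were called (0.199% higher and 0.551% lower). At an unadjusted p under 0.05, limma gave 7 higher and 9 lower. The share of all tested genes under that unadjusted p was not counted, so nothing is read from these counts. The median log2 fold change was 0.02, beside 0.00 for all genes tested. The gene that rose was Dusp1, a phosphatase of MAP kinases induced by CREB and also by glucocorticoid, which read 1957, 2398, 2193, 2168 and 2113 in CLP arrays, against 1388, 886, 957, 1148 and 1232 in sham arrays (log2 fold change 0.96 ± 0.13, SE, adjusted p = 0.0163). All CLP arrays lay above all sham arrays, and the call was lost without CLP replicate 5 or sham replicate 3, with no filter and in either 18S class alone. Dusp1 belongs to the CREB target list, in which 8 of 9 tested genes had a higher mean in CLP arrays, against 51.2% of all genes tested, with a median of 0.15. The smallest of these log2 fold changes was 0.01. As the list was written with earlier results of these data known, the count is a description, and nothing is read from it. In that list Per1, a clock gene that glucocorticoid induces as well, gave 0.89 ± 0.27 (adjusted p = 0.177).

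Among receptors that couple to Gs, 8 genes were tested, the median was -0.26, and no brightest probe set was called. Ptger2 (EP2, the other Gs-coupled prostaglandin E2 receptor) read 301, 223, 247, 286 and 223 in CLP arrays, against 341, 412, 448, 429 and 328 in sham arrays. All CLP arrays lay below the sham arrays, at -0.61 ± 0.13 on the log2 scale (SE, limma adjusted p = 0.0549). Gpr174, a lysophosphatidylserine receptor of lymphocytes, read 714, 758, 689, 1163 and 596 in CLP arrays, against 1035, 1623, 1231, 1561 and 1050 in sham arrays. Only CLP replicate 4 reached into the sham range, and the log2 fold change was -0.74 ± 0.19 (adjusted p = 0.11). Its other tested probe set, 1447792_x_at, read 263, 309, 425, 351 and 242 in CLP arrays, against 494, 509, 538, 527 and 642 in sham arrays. There all CLP arrays lay below the sham arrays and the probe set was called, at -0.79 ± 0.15 (adjusted p = 0.0429), a call kept in 10 of 23 other settings. It was lost without CLP replicate 2 or 5 or any 1 of the 5 sham replicates. Quantile normalization, array weights, replicate number as a block, no filter and either 18S class alone ended it too. With the 18S class as a block, 5 of the 87 genes passed (5.75%, where 2.72% of all genes did, 0.673% higher and 2.04% lower): Ptger2 (adjusted p = 0.0297), Gpr174 (0.0156) and Calcrl, a receptor subunit for the peptides CGRP and adrenomedullin (log2 fold change -0.74, adjusted p = 0.0104), were lower, and Dusp1 and Rgs1, which limits signalling of Gi-coupled receptors (0.58, adjusted p = 0.0456), were higher. Calcrl was named after its value was seen.

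**Figure D4:**
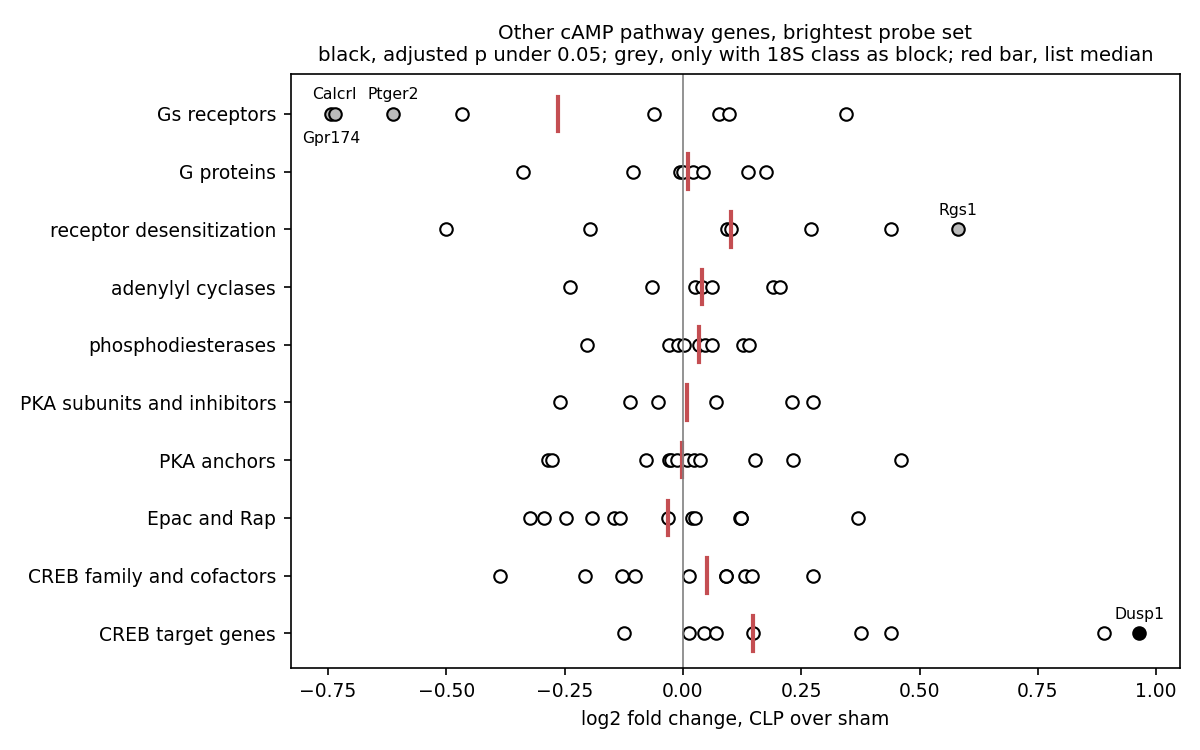
Log2 fold change of CLP over sham for the tested genes of the 10 lists of other cAMP pathway genes, 1 point per gene, with red bars at list medians. Dusp1 (black, at 0.96) passed the threshold, and Ptger2, Gpr174, Calcrl and Rgs1 (grey) passed with the 18S class as a block.

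In the remaining lists the medians lay between -0.03 and 0.10, and no gene passed. Of the desensitization list Rgs1 read 593, 917, 1010, 1003 and 855 in CLP arrays, against 585, 555, 600, 601 and 536 in sham arrays (0.58 ± 0.14, adjusted p = 0.0914), with CLP replicate 1 inside the sham range, and Rgs2 gave 0.44 ± 0.22. Of the G proteins and their chaperone, Gng2 gave 0.18 ± 0.16 and Ric8b -0.34 ± 0.19. The adenylyl cyclases of lowest p other than Adcy7 were Adcy2 (0.19 ± 0.09) and Adcy9 (0.20 ± 0.11), and the other phosphodiesterases of lowest p were Pde7a (-0.20 ± 0.13) and Pde4a (0.14 ± 0.10). Prkacb, the second catalytic subunit of PKA, gave -0.26 ± 0.09 and the PKA inhibitor Pkig 0.23 ± 0.19. The anchoring proteins Akap12 and Akap9 gave 0.46 ± 0.14 and -0.28 ± 0.09. On the Epac side Rap1a, the GTPase that Epac1 activates, gave -0.19 ± 0.08 with all CLP arrays (3350 to 3949) below all sham arrays (4052 to 4465), and its relative Rap2b gave -0.25 ± 0.09. Among CREB relatives and cofactors, Sik2, a kinase that holds back CREB coactivators, gave -0.39 ± 0.14 and Crebl2 -0.21 ± 0.11. The adjusted p of the genes in this paragraph other than Rgs1 lay between 0.163 and 0.836. These values are of the brightest probe sets, and for some genes another tested set had the opposite sign. Such sets gave -0.02 for Rgs2, -0.28 for Gng2, 0.08 for Ric8b, -0.03 for Adcy9 and 0.20 for Prkacb. Akap9 had one at 0.08, Rap2b at 0.01, Sik2 at 0.05, and Pde7a at 0.06 and 0.14.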

How the data were processed

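RNA of 10 mice (5 CLP, 5 sham) was amplified in 2 rounds, which favours transcript 3′ ends, and read on Affymetrix arrays with biotin-labelled cRNA, per the labels' protocols. The deposited table holds 1 linear intensity per probe set and array as the authors processed it; how probes were summarised and scaled is not given in the sources used here. Arrays were scaled to a common median of 133.9, values below the 25th percentile (70.36) were set to it, and log2 was taken. Probe sets whose mean log2 lay under the 40th percentile (6.71) and 64 controls were left out, which kept 27022 of 45101. limma 3.58.1 (R 4.3.3) compared CLP with sham, without covariates, with Benjamini-Hochberg adjustment and a threshold of 0.05, and its adjusted p-values are those printed. The fit was also run on simulated data with independent noise for each probe set and no 18S class effect. Since these arrays hold such a class effect, that run says nothing about the calls printed here. Figures were drawn with matplotlib 3.10.9. A gene outside the 9 was represented by the tested single-symbol probe set of highest mean (13073 genes). Platform annotation gave 34945 probe sets 1 symbol and 932 several, and 9160 were unnamed here. All 31 probe sets of the 9 genes matched RefSeq by Entrez identifier. The 18S class was set by a mean 18S intensity under or over 1000. The members and lists were chosen with earlier results of these data known. Named were all 9 genes, every other pathway gene past the threshold, the 2 of lowest p in each list, and the 5 probe sets most like Rapgef3. Calcrl was added after its value was seen, as was the called second probe set of Gpr174. Alternatives were other scalings, floors, filters and variance models, array weights, blocks, each 18S class alone and each array left out. The number of arrays limits the precision. The labels give each array an individual mouse, but every sham title reads replicate 1 with its own sham number, and that sham number is used here. Same-numbered CLP and sham arrays gave correlations of their deviations from the group means between 0.06 and 0.58, 1 of them under 0.1, so the numbers were not taken to pair mice.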

Additional observations from a re-analysis of the deposited data

Results flagged for a closer look

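Among 78 groups of 5 arrays tested for a single array far from the others, 5 had one, where chance gives about 1 in 20. The measure is the gap to the nearest other array over the whole range of log2 values, with a critical value of 0.71. For Crem 1449037_at sham replicate 3 stood highest among sham arrays with a ratio of 1, at 72.7 against 60.7 for the next, since the other 4 lay at the floor. Pde7a, a phosphodiesterase, was lowest in CLP replicate 2 (ratio 0.715), at 797 against 1170 for the next. Prkacb, a catalytic subunit of PKA, was lowest in sham replicate 1 (ratio 0.74), at 3070 against 3730. Rap2b, a small GTPase, was highest in sham replicate 4 (ratio 0.739), at 2930 against 2650. Sik2, a kinase that restrains CREB coactivators, was lowest in sham replicate 5 (ratio 0.716), at 791 against 1030.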

How the results depend on the processing

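Counts of the 9 genes' probe sets called higher stayed at 3 and lower at 1 under the other scalings, floors and the stricter filter. Of all tested probe sets, 0.167% to 0.272% were called higher and 0.485% to 0.688% lower in these settings. With no filter none was called by limma in either direction, and none in the low or the high 18S class alone (0 higher and 0 lower), where 12, 8 and 10 had an unadjusted p under 0.05. The share of all probe sets at that unadjusted p was not counted, so nothing is read from these numbers. Over the whole array 0% were called higher and 0.00666% lower with no filter, and 0% in either class alone. Lower calls numbered 0 with an intensity trend and robust prior, 2 with array weights and 3 with the 18S class as a block. Of all tested probe sets 0.414%, 1.31% and 2.01% were called lower in these settings. Leaving out 1 array gave 0 to 3 higher and 0 to 2 lower: 1 higher without CLP replicate 2, 3 or 5 or sham replicate 1 or 4, 2 without sham replicate 2, 0 without sham replicate 3 (10 at an unadjusted p under 0.05), and 2 lower without CLP replicate 1 but 0 without any other array. Of all tested probe sets, 0% (without sham replicate 3) to 0.455% (without CLP replicate 1) were then called higher. The share called lower ran from 0.0148% to 1.42% on leaving out the same 2 arrays. In the low class alone, with 2 arrays against 2, 7 probe sets lay above and 9 below without overlap, where 18.7% and 19.2% of all tested probe sets did. Of the other pathway genes, higher calls numbered 0 with no filter and in either class alone, 2 with the 18S class as a block, and 0 to 2 with 1 array left out (0 without CLP replicate 5 or sham replicate 3, 2 without CLP replicate 1 or sham replicate 5). Lower calls numbered 2 with array weights, 2 with probe sets averaged, 3 with the 18S class as a block, and 0 to 1 with 1 array left out (1 without CLP replicate 1 or 4). With array weights 1.31% of all tested probe sets were called lower. With the 18S class as a block 0.673% of all genes tested were called higher and 2.04% lower. The share of all genes with probe sets averaged is not given here. By 18S class, higher calls numbered 2 with quantile or 75th percentile scaling, where 6.63% and 7.21% of all tested probe sets were called higher. Lower calls numbered 2 unscaled or with the stricter filter, where 12.6% and 13.1% were called lower. With array weights 4 were called higher and 4 lower (11.6% higher and 18.8% lower among all tested probe sets). With 1 array left out both counts were 1 to 2, where 2.01% to 6.79% of all tested probe sets were called higher and 5.02% to 12.3% lower. The sign turned for small log2 fold changes that passed no test. Pde4b 1442700_at gave -0.0867 in the high class alone and -0.1156 to 0.3699 with 1 array left out (-0.0243 without CLP replicate 5, -0.1147 without sham replicate 2). Pde4b 1422473_at gave 0.0151 with array weights, 0.0894 in the low class alone and -0.2154 to 0.0253 with 1 array left out. Prkaca 1450519_a_at gave -0.0032 with array weights, and Gng2 -0.0442 in the low class alone. With the replicate block 3 higher and 1 lower were called among the 9 genes and 1 higher and 2 lower among the other pathway genes. Of all tested probe sets 0.333% were then called higher and 0.585% lower. Of the 5 CLP arrays, 1 correlated best with the sham array of its own number. The cause of these differences between settings was not tested.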
